A study of Homo sapiens with 6 samples.

Results

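The genes examined were 9 members of the transforming growth factor beta (TGF-beta) pathway, picked by name from the 23026 genes of the normalized table. They comprise the ligands TGFB1, TGFB2 and INHBA, the latency protein LTBP1, the receptors TGFBR1 and TGFBR2, the transducer SMAD3, its inhibitor SMAD7 and the induced matrix protein TGFBI. All 9 were found, and 7 of them were among the 9697 genes with a mean above 10 CPM (normalized counts scaled to a common library size), INHBA and LTBP1 being lower. Messenger RNA was sequenced from T98G, a human glioblastoma line, after lentiviral infection with a control hairpin (shControl) or 1 hairpin against the kinase DYRK1A (shDYRK1A). Both groups went through puromycin selection, and 3 libraries per group were named 1A, 1B and 1C. Equal numbers of T98G cells had been mixed with a constant number of Drosophila Kc167 cells, so the fly reads give a scale per human cell. The labels do not say whether libraries of a group came from separate cultures, so p-values measure the spread between these libraries only.

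TGF-beta is secreted bound to its own propeptide and to latent TGF-beta binding proteins, which hold it inactive in the extracellular matrix until integrins or proteases release it. The freed ligand brings together a type II receptor (TGFBR2) and a type I receptor (TGFBR1), which phosphorylates SMAD2 and SMAD3. These join SMAD4 in the nucleus and switch on genes such as SMAD7, which feeds back on the receptor. In glioblastoma the pathway is known for its roles in invasion, immune suppression and a mesenchymal state, and the tumours secrete TGFB2 in particular.

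Total gene counts were between 33708297 and 42154438 per library, and unmapped reads made up between 8.44 and 15.65% of all reads, the highest share being in shDYRK1A 1B. DYRK1A, the target of the hairpin, had 2227, 2234 and 1895 normalized counts in the controls against 1482, 1056 and 1285, so all 3 knockdown libraries lay below the controls. Its log2 fold change was -0.73 per cell (SE 0.15, adjusted p = 5.33e-06), where the median of all genes was -0.40, and -0.34 relative to other human genes (TMM scaling, SE 0.06, adjusted p = 0.000591), or 79.3% of control. Among glial markers, GFAP, S100B and SOX2 were at or near 0 CPM in every library, OLIG2 and NES were at 1.06 to 1.87 and 1.29 to 2.02 CPM, and VIM was at 1530 to 1975 CPM. Of the mesenchymal markers, CD44 was at 1401 to 1592 CPM, while the mean of CHI3L1 was 4.36 CPM in shControl and 13.5 CPM in shDYRK1A, that of TNC 24.7 and 35.1 CPM and that of VIM 1935 and 1589 CPM, differences whose part in the results was not tested. The 8 markers of blood, vessel, epithelial and liver cells summed to between 1.21 and 1.46 CPM in shControl and between 1.63 and 2.58 CPM in shDYRK1A, and 1 of them, EPCAM, was above 1 CPM; the part of these few reads in the results was not tested.

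A fold change can be read on a pair of scales here. Spike-in scaling compares RNA per cell, and on it the median log2 fold change of all 9697 genes was -0.40. TMM scaling compares each gene with the other human genes, and on it that median was 0.00. In bulk RNA, fewer cells expressing a gene and less of its RNA in each cell cannot be told apart.

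The stretches upstream of both main ligands and both receptors are shown because the fold change estimates of each pair lay on either side of the median of all genes. Each is the 250 bases before the transcription start that RefSeq lists first (GRCh38.p14), written 5′ to 3′ on the gene's strand, with the SMAD letters CAGAC or their complement GTCTG in capitals. These starts can differ from the gene coordinates given below. The stretches of TGFBR1, SMAD3 and INHBA lie inside those coordinates, and that of TGFB2 ends at 218345335, before the gene start at 218346235. The matches therefore hold for the RefSeq starts only.
TGFB1 (chr19:41353923-41354172, minus strand): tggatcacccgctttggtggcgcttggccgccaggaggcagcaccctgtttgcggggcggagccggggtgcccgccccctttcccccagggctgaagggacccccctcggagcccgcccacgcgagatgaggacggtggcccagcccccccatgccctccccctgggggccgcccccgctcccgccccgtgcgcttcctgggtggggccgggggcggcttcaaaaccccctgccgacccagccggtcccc
TGFB2 (chr1:218345086-218345335, plus strand): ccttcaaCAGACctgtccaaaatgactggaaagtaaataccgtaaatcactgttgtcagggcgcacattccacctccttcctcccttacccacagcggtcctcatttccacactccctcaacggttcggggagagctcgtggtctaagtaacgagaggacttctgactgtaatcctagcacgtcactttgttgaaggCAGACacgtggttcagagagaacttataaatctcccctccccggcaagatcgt
TGFBR1 (chr9:99104863-99105112, plus strand): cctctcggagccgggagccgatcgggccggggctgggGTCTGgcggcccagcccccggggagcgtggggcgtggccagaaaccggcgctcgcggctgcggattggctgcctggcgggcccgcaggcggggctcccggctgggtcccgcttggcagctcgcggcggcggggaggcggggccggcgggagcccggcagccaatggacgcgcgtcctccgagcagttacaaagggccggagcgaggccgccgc
TGFBR2 (chr3:30606106-30606355, plus strand): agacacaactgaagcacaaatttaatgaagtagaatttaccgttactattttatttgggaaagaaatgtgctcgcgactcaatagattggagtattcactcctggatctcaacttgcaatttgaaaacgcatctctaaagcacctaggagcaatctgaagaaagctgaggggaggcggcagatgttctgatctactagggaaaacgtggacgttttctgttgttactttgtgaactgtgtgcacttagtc
TGFB2 carried CAGAC at -243 and -53 from the start, and TGFBR1 at -213 on the opposite strand. The TGFB1, TGFBR2 and TGFBI windows did not hold it. A link between these letters and the fold changes was not tested. Among the other genes, SMAD7 held it at -217 and -128, LTBP1 at -85 and -61 on the opposite strand, and SMAD3 and INHBA only after the start, at 7 and 28. The letters occurred in 45.0% of 27305 promoter windows of 300 bases searched on both strands, so 6 of 9 genes with a match is a description only. The GC-rich SMAD letters GGCGC, whose complement overlaps them in GGCGCC, were in 48.3% of windows and in those of TGFB1, TGFB2, TGFBR1, SMAD3, TGFBI and LTBP1. The SMAD palindrome GTCTAGAC (0.201% of windows), the AP-1 letters TGACTCA (4.92%) and the palindrome TCTCGCGAGA that the study links to DYRK1A (0.469%) were in none of the 9 windows.

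Of the 7 genes past the CPM filter, TGFB2, TGFBR1 and TGFBI fell per cell in the DYRK1A-depleted libraries, against 63.4% of all genes tested. TGFB1, TGFBR2, SMAD3 and SMAD7 did not pass the test on that scale. With edgeR, 0 of the 7 were called higher, which was also the count at an unadjusted p under 0.05 and with DESeq2, against 1.08% of all genes. None passed a log2 fold change of 0.7 in either direction, against 14.3% of genes lower and 0.278% higher. Relative to other human genes, the split was 2 lower, TGFB2 and TGFBR1, and 4 higher, TGFB1, TGFBR2, SMAD3 and SMAD7, against 28.6% and 27.3% of all genes. The weakly expressed INHBA and LTBP1 were fitted with edgeR's filterByExpr, which keeps 17530 genes. There, both were lower per cell (44.2% of genes lower, 1.97% higher), and INHBA was also lower after TMM scaling (21.0% lower, 19.0% higher). In normalized counts, the groups of TGFB2, INHBA, LTBP1, TGFBR1 and TGFBI did not overlap and shDYRK1A was lower. This arrangement was seen in 63.6% of the 9697 genes, which do not include INHBA and LTBP1.

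**Figure D1:**
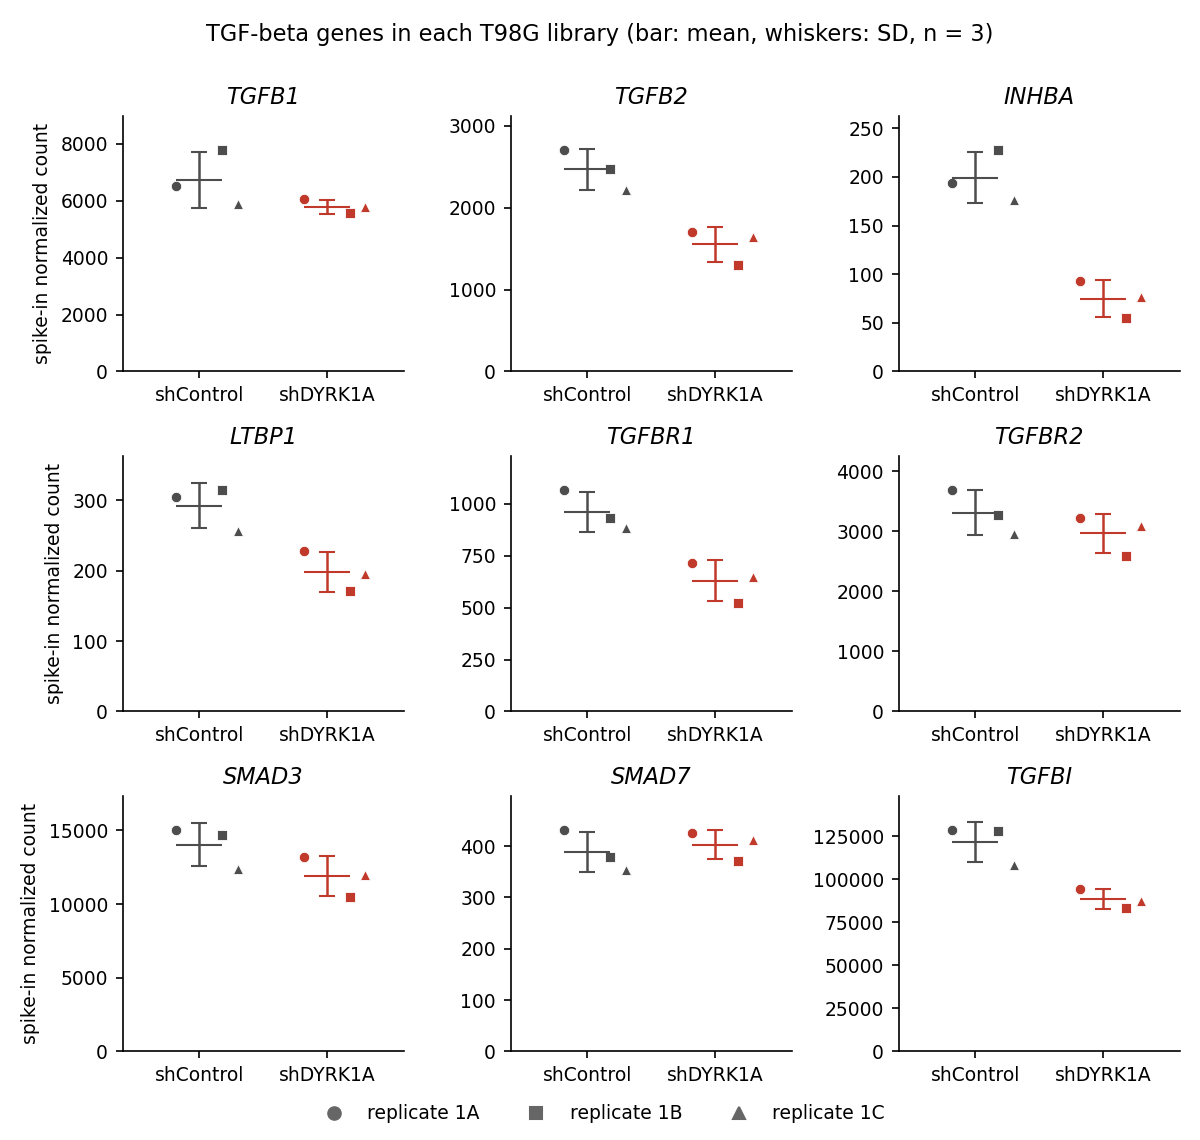
Spike-in normalized counts (vertical axes, from 0) of the 9 genes in each library, by hairpin; symbols mark the replicate name, the bar is the mean and the whiskers the SD of 3 libraries. The groups are apart for TGFB2, INHBA, LTBP1, TGFBR1 and TGFBI and overlap for TGFB1, TGFBR2, SMAD3 and SMAD7.

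On GRCh38, TGFB2 (ENSG00000092969, chromosome 1, 218346235 to 218444619, plus strand) had 2711, 2473 and 2220 normalized counts in the control libraries 1A, 1B and 1C, while the knockdown libraries had 1709, 1306 and 1639. Every knockdown library was thus below every control. The log2 fold change was -0.67 per cell (SE 0.14, adjusted p = 2.25e-05), which leaves 62.9% of the control level, and -0.27 after TMM scaling (SE 0.06, adjusted p = 0.00274). Of its exonic bases, 26.6% are shared with TGFB2-OT1, a transcript annotated on the same strand that had 0 counts in every library. Reads in that stretch may be missing from the TGFB2 count, so its level is uncertain.

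TGFB1 (ENSG00000105329, chromosome 19, 41301587 to 41353911, minus strand), the most widely expressed TGF-beta, had 6503, 7798 and 5888 normalized counts in shControl and 6047, 5555 and 5763 in shDYRK1A. The groups overlapped, since shDYRK1A 1A was above shControl 1C. Its log2 fold change was -0.22 per cell (SE 0.13, adjusted p = 0.141) and 0.19 after TMM scaling (SE 0.06, adjusted p = 0.0246). Without shControl 1C the fall per cell passed the test (-0.30, adjusted p = 0.0162), and the TMM call ended without shControl 1A, shControl 1C or shDYRK1A 1B (adjusted p between 0.0848 and 0.124) and with filterByExpr (adjusted p = 0.0521). TGFB1 shares 6.64% of its exonic bases with HNRNPUL1 on the opposite strand, and the strand setting of the counting is not given in the sources used here.

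INHBA (ENSG00000122641, chromosome 7, 41667168 to 41705834, minus strand), which encodes the activin A subunit, was the least abundant of the 9 and had the lowest fold change. The control libraries had 194, 228 and 176 normalized counts and the knockdown libraries 93, 55 and 77, from 159 to 201 and 59 to 98 raw reads. The highest knockdown library was at 93 and the lowest control at 176. The log2 fold change was -1.41 per cell (SE 0.22, adjusted p = 3.11e-09), or 37.5% of control, and -1.05 after TMM scaling (SE 0.15, adjusted p = 3.8e-05). Without shDYRK1A 1B, the lowest library, it was -1.24 per cell (adjusted p = 6.11e-06).

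LTBP1 (ENSG00000049323, chromosome 2, 32946972 to 33399509, plus strand), which tethers latent TGF-beta to the matrix, had 306, 315 and 256 normalized counts in shControl and 228, 171 and 196 in shDYRK1A. The groups were apart by less than the range within either of them. The log2 fold change was -0.56 per cell (SE 0.19, adjusted p = 0.00867) and -0.19 after TMM scaling (SE 0.10, adjusted p = 0.166). The call per cell ended when shControl 1A, shControl 1B, shDYRK1A 1B or shDYRK1A 1C was left out, with adjusted p between 0.0586 and 0.066.

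As with TGFB2 and TGFB1, the receptors lay on either side of the median of all genes. TGFBR1 (ENSG00000106799, chromosome 9, 99104038 to 99154192, plus strand), the kinase that acts on SMAD2 and SMAD3, had 1069, 931 and 885 normalized counts in shControl and 716, 523 and 650 in shDYRK1A. All 3 knockdown libraries were below the controls, and the log2 fold change was -0.61 per cell (SE 0.16, adjusted p = 0.000354), or 65.6% of control. After TMM scaling it was -0.21 (SE 0.08, adjusted p = 0.0308), a call that ended without shControl 1A, shControl 1C or shDYRK1A 1B (adjusted p between 0.0606 and 0.117).

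TGFBR2 (ENSG00000163513, chromosome 3, 30606502 to 30694142, plus strand), the ligand-binding receptor, had 3698, 3281 and 2951 normalized counts in shControl and 3219, 2596 and 3093 in shDYRK1A. The groups overlapped, with shDYRK1A 1A and 1C both above shControl 1C. Its log2 fold change per cell was -0.16 (SE 0.14, adjusted p = 0.313), with a 95% interval from -0.43 to 0.12. Relative to other genes TGFBR2 rose by 0.25 on the log2 scale (SE 0.05, adjusted p = 0.00255).

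SMAD3 (ENSG00000166949, chromosome 15, 67063763 to 67195195, plus strand) had 15060.3, 14678 and 12373 normalized counts in shControl and 13223, 10495 and 11995 in shDYRK1A. shDYRK1A 1A lay above shControl 1C, so the groups overlapped. The log2 fold change was -0.24 per cell (SE 0.13, adjusted p = 0.0985) and 0.16 after TMM scaling (SE 0.04, adjusted p = 0.00464). Without shControl 1C, the fall per cell passed the test (-0.32, adjusted p = 0.0067).

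SMAD7 (ENSG00000101665, chromosome 18, 48919853 to 48950711, minus strand), the inhibitory SMAD, had 432, 379 and 354 normalized counts in shControl and 425, 372 and 412 in shDYRK1A. The groups were interleaved, and its mean of 10.07 CPM was just past the filter. Per cell the log2 fold change was 0.05 (SE 0.17, adjusted p = 0.779), with a 95% interval from -0.28 to 0.38, and without shControl 1C it was -0.0089. After TMM scaling SMAD7 rose by 0.46 on the log2 scale (SE 0.08, adjusted p = 0.000636), above 95.4% of all genes.

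TGFBI (ENSG00000120708, chromosome 5, 136028895 to 136063818, plus strand), a secreted adhesion protein named for its induction by TGF-beta, was the most abundant of the 9 genes. It had 128941, 127865 and 108557 normalized counts in shControl and 94547, 83107 and 87602 in shDYRK1A. Each knockdown library was below each control. The log2 fold change per cell was -0.46 (SE 0.12, adjusted p = 0.000609), or 72.6% of control, which lay near the median of all genes. After TMM scaling it was -0.056 (SE 0.05, adjusted p = 0.318), with a 95% interval from -0.15 to 0.04.

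**Figure D2:**
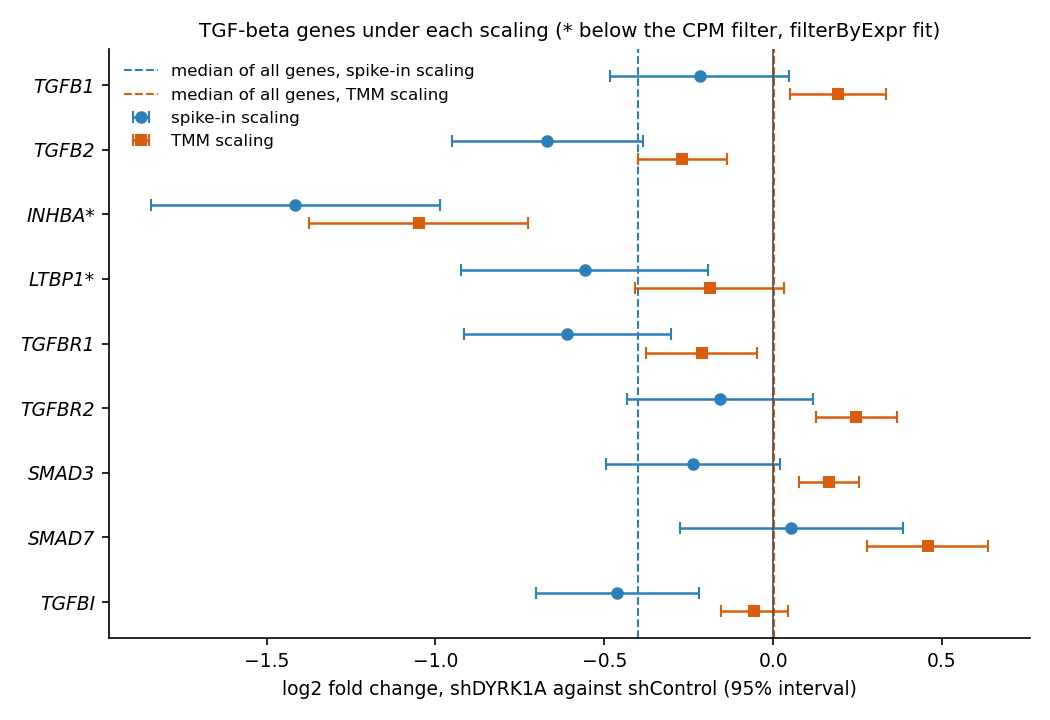
Log2 fold change of each gene in shDYRK1A against shControl (horizontal axis), with 95% intervals from edgeR, under spike-in scaling (circles) and TMM scaling (squares); dashed lines are the medians of the 9697 genes, -0.40 and 0.00. INHBA lies to the left of both medians and SMAD7 to the right of both, with intervals that do not reach them, and for TGFB1, TGFBR2 and SMAD3 the sign turns with the scaling.

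On the spike-in scale shDYRK1A 1B was the lowest knockdown library for all 9 genes, and it also had the lowest DYRK1A count and the largest unmapped share. One size factor applies to all genes of a library, so these are not separate observations, and its part in the results was not tested. Without that library the log2 fold changes per cell were -0.56 for TGFB2 (adjusted p = 0.00139), -0.49 for TGFBR1 (adjusted p = 0.00912) and -0.42 for TGFBI (adjusted p = 0.0157), so these 3 calls stood, whereas that of LTBP1 ended (-0.46, adjusted p = 0.0586).

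Per kb of exon, the order of the levels was the same in both groups, namely TGFBI, TGFB1, SMAD3, TGFBR2, TGFB2, TGFBR1, SMAD7, LTBP1 and INHBA. In shControl the levels ran from 15594 ± 1469 normalized counts per kb for TGFBI (SD, n = 3) over 2078 ± 301 for TGFB1 and 479 ± 47.7 for TGFB2 to 24.0 ± 3.18 for INHBA. No neighbours in this order had overlapping ranges there. The place of TGFB2 is uncertain, because reads in the 26.6% of its exonic bases shared with TGFB2-OT1 may be missing. In shDYRK1A, TGFBR1 at 92.0 ± 14.3 and SMAD7 at 80.1 ± 5.56 normalized counts per kb overlapped, while in shControl TGFBR1 had been at 140 ± 13.99 and SMAD7 at 77.2 ± 7.90.

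Ratios of member pairs within a library need neither scale. They were taken as log2 ratios of raw counts and compared with a two-sided exact permutation test over the 6 libraries, whose smallest possible p is 0.1, so that no pair could pass 0.05. TGFB2 over TGFB1 was -1.26, -1.66 and -1.41 in shControl and -1.82, -2.09 and -1.81 in shDYRK1A, a difference of -0.47 between means. The share of TGFB2 in the ligand pair was therefore lower in every knockdown library. TGFBR1 over TGFBR2 was -1.79, -1.82 and -1.74 in shControl and -2.17, -2.31 and -2.25 in shDYRK1A, a difference of -0.46 with an SD of 0.04 and 0.07 within the groups. SMAD7 over SMAD3, the inhibitor against the transducer, was -5.12, -5.27 and -5.12 in shControl and -4.96, -4.82 and -4.86 in shDYRK1A, a difference of 0.29. For the remaining pairs the differences were -0.76 for INHBA over TGFB2, -0.25 for TGFBI over TGFB1 and -0.35 for LTBP1 over TGFB1. The groups did not overlap for any of the 6 pairs, as was so for 63.8% of all pairs of genes past the CPM filter. INHBA and LTBP1 are below that filter, and no share was computed for pairs that hold such genes. Each of the 6 pairs gave the smallest p of 0.1 (exact permutation test, also 0.1 after Benjamini-Hochberg adjustment over 6).

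**Figure D3:**
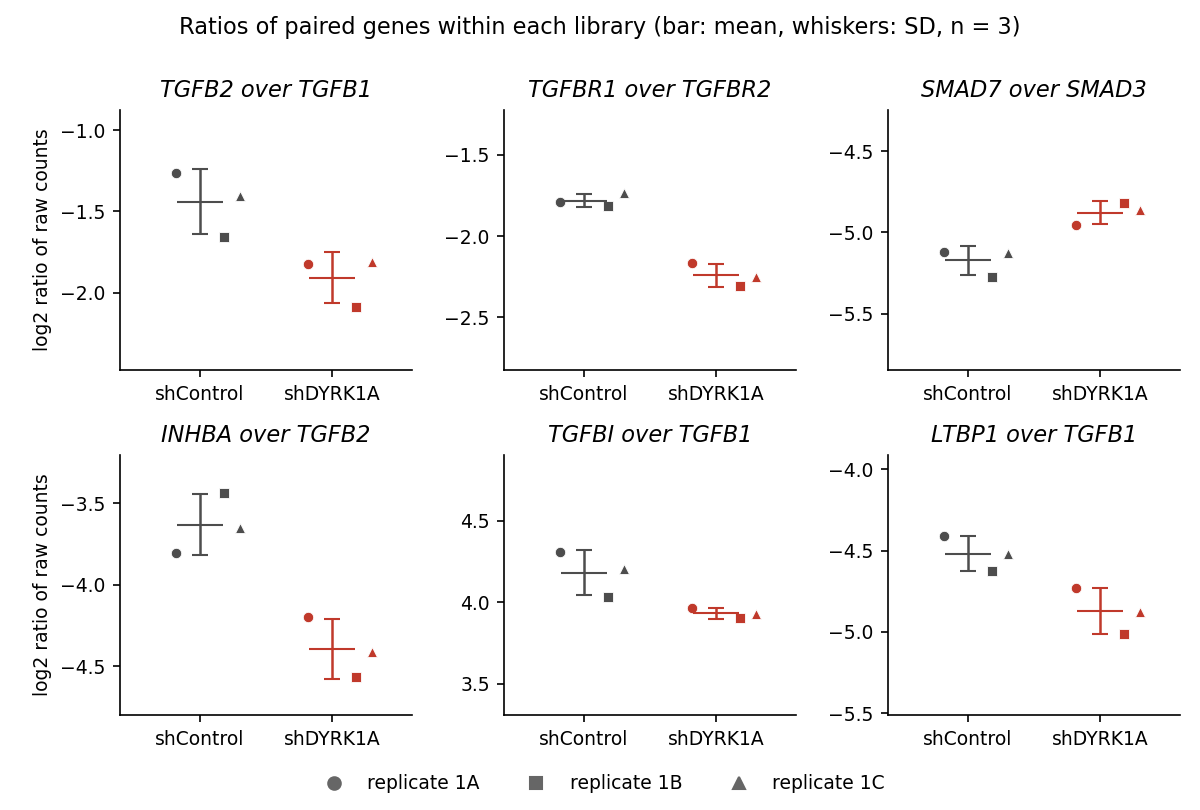
Log2 ratio of raw counts of gene pairs within each library (vertical axes, each spanning 1.6 log2 units and not starting at 0), by hairpin; symbols mark the replicate name, bars the mean and whiskers the SD of 3 libraries. In all 6 pairs the groups are apart, with SMAD7 over SMAD3 higher and the other 5 ratios lower in shDYRK1A. The groups are also apart in 63.8% of all pairs of genes past the CPM filter, which leaves out INHBA and LTBP1.

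The wider pathway was described with lists of 115 different genes, of which 76 passed the CPM filter. Of these, 42 (55.3%) were lower and 2 (2.63%) higher per cell, against 63.4% and 1.08% of all genes, with a median log2 fold change of -0.34 against -0.40. After TMM scaling 21 (27.6%) were lower and 29 (38.2%) higher, against 28.6% and 27.3% of all genes, with a median of 0.07 against 0.00. The share lower thus lay at or below that of all genes on both scales. The 21 lower with TMM (27.6%, against 28.6% of all genes) were also lower per cell, and the 2 higher per cell were also higher with TMM. The scales differ by a shift common to all genes of a library, so this overlap is no separate observation. Of these genes, 14 and 1 held in all 12 fits that left out 1 library, for which no share of all genes was computed.

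Among ligands past the CPM filter, 3 of 5 (60%) fell under both scalings, against 63.4% of all genes per cell and 28.6% with TMM. Beside TGFB2 these were BMP7, a bone morphogenetic protein (-0.70 per cell, adjusted p = 1.82e-05, and -0.29 with TMM, adjusted p = 0.000479), and GDF11 (-0.63 and -0.23). BMP7 had 2018, 2083 and 1718 normalized counts in shControl and 1294, 1096 and 1200.1 in shDYRK1A, again without overlap. The highest of these 5 ligands was GDF15, a stress-induced member, at -0.10 per cell (adjusted p = 0.573) and 0.32 with TMM (adjusted p = 0.0101), a call that ended without shControl 1A or 1C (adjusted p up to 0.0543). Of 8 ligands below the filter that could be fitted, INHBA and INHBB fell under both scalings. Of the 17530 genes of that fit, 44.2% were lower per cell and 21.0% with TMM. A further 4 of the 8 rose with TMM (against 19.0% of those genes), namely BMP2 (0.84, adjusted p = 0.000235), BMP4 (0.56, adjusted p = 0.0012), TGFB3 (0.74, adjusted p = 0.0149) and INHA (0.65, adjusted p = 0.0207). Per cell these 4 were at 0.47, 0.19, 0.37 and 0.29 and did not pass the test, and the TMM calls of TGFB3 (without shControl 1B, shControl 1C or shDYRK1A 1A) and INHA (without shControl 1A, shControl 1C or shDYRK1A 1A) ended, with adjusted p up to 0.0813 and 0.0995. The inhibin beta subunit INHBB was at -2.19 per cell (adjusted p = 3.79e-05) and -1.82 with TMM (adjusted p = 0.000966). These rest on 26.3 ± 4.28 and 5.63 ± 0.979 normalized counts (SD, n = 3).

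Of 10 tested genes of latency and activation, 4 fell and 1 rose per cell (40% and 10%, against 63.4% and 1.08% of all genes), and 1 fell and 5 rose with TMM (10% and 50%, against 28.6% and 27.3%). The gene that rose under both was ITGB8, the integrin subunit that helps to activate latent TGF-beta. It had 1139, 1238 and 985 normalized counts in shControl and 2151, 1424 and 2017 in shDYRK1A, a log2 fold change of 0.73 per cell (SE 0.15, adjusted p = 7.18e-06) and 1.13 with TMM (SE 0.09, adjusted p = 1.24e-06). FBN2, a fibrillin of the matrix fibres that bind the latency proteins, fell under both (-0.61 and -0.21), although its TMM call ended without shControl 1C (adjusted p = 0.0618). THBS1, an activator of latent TGF-beta, fell per cell (-0.54, adjusted p = 0.000132) and was at -0.14 with TMM (adjusted p = 0.076). Below the filter, LRRC32, which anchors latent TGF-beta at the cell surface, and the protease gene PLAT fell per cell beside LTBP1 (-0.91 and -0.41, adjusted p = 0.045 and 0.0498). The call of PLAT ended without any single library and that of LRRC32 without shControl 1B, shControl 1C, shDYRK1A 1B or shDYRK1A 1C (adjusted p up to 0.189 and 0.236), and with TMM they were at -0.57 for LRRC32 (adjusted p = 0.229) and -0.044 for PLAT (adjusted p = 0.795). Of the 2 antagonists tested, FSTL3, which binds activins, fell under both (-0.62 and -0.22), its TMM call ending without shControl 1A, shControl 1B, shDYRK1A 1B or shDYRK1A 1C (adjusted p up to 0.158). FSTL1 was at -0.22 per cell (adjusted p = 0.129) and rose by 0.18 with TMM (adjusted p = 0.00215). Below the filter, the activin antagonist FST was at -0.79 per cell (adjusted p = 0.000354; without shControl 1A, 0.0511), and the proteoglycan gene BGN at -1.03 (adjusted p = 0.0226; without shControl 1B or shDYRK1A 1C, up to 0.17).

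Of 10 receptors and co-receptors past the filter, 4 fell per cell (40%, against 63.4% of all genes), and 1 fell and 5 rose with TMM (10% and 50%, against 28.6% and 27.3%). TGFBR1 had the lowest fold change of the 10 and was the one that fell under both scalings. The highest was ACVR2A, an activin type II receptor, at 0.16 per cell (adjusted p = 0.341) and 0.57 with TMM (adjusted p = 1.7e-05). The co-receptor TGFBR3, below the filter, was at 0.55 per cell (adjusted p = 0.00456) and 0.92 with TMM (adjusted p = 9.47e-07). Of 6 SMADs, 3 (50%, against 63.4% of all genes) fell per cell, namely SMAD2 (-0.42, adjusted p = 0.00674), SMAD4 (-0.40, adjusted p = 0.0143) and SMAD5 (-0.52, adjusted p = 0.000609). The calls of SMAD2 and SMAD4 ended without shControl 1A, shDYRK1A 1B or shDYRK1A 1C, and that of SMAD4 also without shControl 1B. With TMM 3 SMADs rose (50%, against 27.3% of all genes), namely SMAD3, SMAD7 and the inhibitory SMAD6 (0.53, adjusted p = 0.000106). On that scale edgeR called 0 lower (against 28.6% of all genes), also at an unadjusted p under 0.05 and with median-of-ratios scaling.

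Regulators and partners of the SMADs fell in 12 of 17 cases per cell (70.6%, against 63.4% of all genes), with 2 past 0.7 (11.8%, against 14.3%), and 6 fell and 4 rose with TMM (35.3% and 23.5%, against 28.6% and 27.3%). The ubiquitin ligases SMURF1 and SMURF2, which act against the receptors and SMADs, were among those that rose with TMM (0.27, adjusted p = 0.000647, and 0.29, adjusted p = 0.00116). Of the 6 that fell under both, PMEPA1, which sequesters SMADs, was the lowest, with 1774, 1749 and 1451 normalized counts in shControl and 984, 763 and 798 in shDYRK1A (-0.97, adjusted p = 5.52e-09, and -0.57 with TMM, adjusted p = 1.22e-05). SKIL, a SMAD corepressor, was at -0.73 and -0.32, and the related ligases NEDD4L and WWP1 were at -0.70 and -0.30, and at -0.60 and -0.20. The phosphatase PPM1A (-0.55 and -0.16) and the receptor partner STRAP (-0.51 and -0.10) complete the set. TMM calls ended without shControl 1B or 1C for WWP1, without any library but shDYRK1A 1A for PPM1A and without any but shDYRK1A 1B for STRAP, with adjusted p up to 0.0566, 0.175 and 0.107. The highest of the 17 was TGIF2, a SMAD corepressor, at -0.08 per cell (adjusted p = 0.633) and 0.33 with TMM (adjusted p = 0.000375).

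Of 27 tested TGF-beta target genes, 18 fell per cell (66.7%, against 63.4% of all genes), 10 of them past 0.7 (37.0%, against 14.3%), and 11 fell and 8 rose with TMM (40.7% and 29.6%, against 28.6% and 27.3%). The list median was -0.51 per cell and -0.10 with TMM, against -0.40 and 0.00 for all genes. All 11 with a fall on the TMM scale had also fallen per cell, which the common shift between the scales makes no separate observation. RHOB, a small GTPase of the actin cytoskeleton, was the lowest of the 27, with 1253, 1312 and 1070.0 normalized counts in shControl and 523, 397 and 474 in shDYRK1A (-1.38, adjusted p = 3.03e-16, and -0.98 with TMM, adjusted p = 3.02e-07). NEDD9, an adhesion scaffold, was next at -1.18 and -0.78, and TPM1, a tropomyosin, was at -0.94 and -0.53. The secreted CTGF and CYR61 were at -0.96 and -0.56, and at -0.90 and -0.48, the latter's TMM call ending without shDYRK1A 1B (adjusted p = 0.0513). Fibronectin (FN1) was at -0.82 and -0.42, the collagen gene COL5A1 at -0.59 and -0.19, the transcription factor SNAI2 at -0.91 and -0.50 and TSC22D1 at -0.80 and -0.40, beside SKIL and PMEPA1 above. Other matrix genes of the list rose with TMM, among them COL4A1 (0.23, adjusted p = 0.00218), TIMP3 (0.21, adjusted p = 0.00715) and LOXL2 (0.13, adjusted p = 0.0232), and were at -0.17, -0.19 and -0.28 per cell without passing the test. Below the filter, the cytokine gene IL11 was at -1.39 per cell (adjusted p = 0.0117) and -1.03 with TMM (adjusted p = 0.0435), and the actin gene ACTA2 was at -0.08 (adjusted p = 0.741) and 0.29 (adjusted p = 0.0493). TMM calls ended without any single library for IL11, without any but shDYRK1A 1C for ACTA2 and without any but shDYRK1A 1A or 1B for LOXL2 (adjusted p up to 0.123, 0.21 and 0.0864), and the per-cell call of IL11 ended without shControl 1B or shDYRK1A 1C (up to 0.0653).

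Other targets lay above 0. CDKN1A, a cell cycle inhibitor and the highest of the 27, was at 0.23 per cell (adjusted p = 0.141) and 0.64 with TMM (adjusted p = 9.28e-06), and JUNB, an AP-1 subunit, was at 0.16 (adjusted p = 0.332) and 0.56 (adjusted p = 0.000617). Of 6 target genes of the BMP branch past the filter, 1 rose per cell (16.7%, against 1.08% of all genes) and 5 rose with TMM (83.3%, against 27.3%). On either scale edgeR called 0 of them lower (against 63.4% of all genes per cell and 28.6% with TMM), also at an unadjusted p under 0.05. ID2, an inhibitor of basic helix-loop-helix factors, rose by 0.38 (adjusted p = 0.0359), a call that ended without any single library other than shControl 1B, and by 0.78 with TMM (adjusted p = 1.87e-05). Its relatives ID1 and ID3 were at 0.21 (adjusted p = 0.154) and 0.27 (adjusted p = 0.0693) per cell and rose by 0.62 and 0.69 with TMM. The lowest of the 6 was ATOH8, at -0.28 (adjusted p = 0.125) and 0.13 (adjusted p = 0.206), and below the filter SMAD9 was at -0.30 (adjusted p = 0.188) and 0.07 (adjusted p = 0.696) and ID4 at 0.23 (adjusted p = 0.537) and 0.60 (adjusted p = 0.0481), a TMM call that ended without any library but shDYRK1A 1B (adjusted p up to 0.23). Within the pathway, the median of the TGF-beta targets thus lay below that of all genes on both scales and that of the BMP targets above it, at 0.16 per cell and 0.57 with TMM, as a description of lists chosen with results known.

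**Figure D4:**
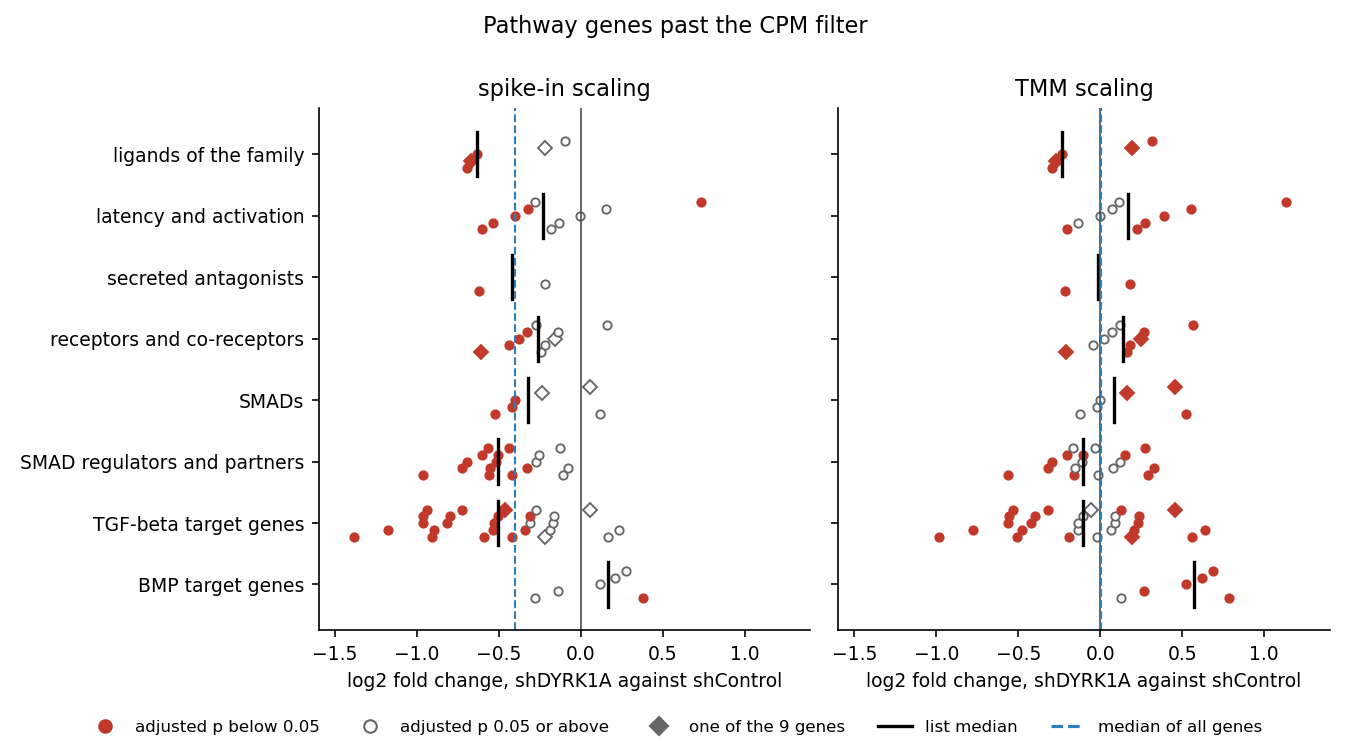
Log2 fold change in shDYRK1A against shControl (horizontal axes) of pathway genes past the CPM filter, by list, under spike-in scaling (left) and TMM scaling (right); filled points have an adjusted p below 0.05, diamonds are among the 9 genes, black bars are list medians and the dashed line is the median of all genes. The TGF-beta targets reach from RHOB at -1.38 to CDKN1A at 0.23 per cell, and the BMP targets lie to the right of the dashed line on both scales.

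For each of the 9, the pair of genes with the closest pattern was sought by the root mean square distance between centred log2 TMM CPM values over the 6 libraries. TRAF3 lay closest to SMAD3, at a distance of 0.0028, and THOP1 closest to TGFB1, at 0.0064, where the median distances over all genes were 0.13 and 0.16. WDR36 was closest to TGFB2 and TAF5L to TGFBR1 (0.02 and 0.03), GOLGA1 to TGFBR2 (0.02), GSTZ1 to SMAD7 (0.03), RALA to TGFBI (0.01) and RPE to LTBP1 (0.01). INHBA had no neighbour as close, its nearest being COL27A1 at 0.08 against a median of 0.54. The second neighbours of the others were BTBD2, ABHD2, FANCD2, TRIM68, HSD17B4, ATP6V1G1, PSMD7 and EMSY. With 9697 genes and 6 libraries such closeness describes these libraries only.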

How the data were processed

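The authors deposited raw gene counts per library from stranded, paired-end mRNA reads (STAR and hg38 per the labels), a normalized count signal, which they scaled by fly reads, for 23026 genes, and a DESeq2 comparison whose log2 fold changes, standard errors, Wald score and p-values were not used here. The strand setting of the counting and the annotation are not given in the sources used here. Coordinates of 95.61% of genes equal those of GENCODE v29. Fly counts were not used here; the size factors (0.821 to 1.03 in shControl, 1.06 to 1.21 in shDYRK1A) are raw count divided by normalized signal. No per-sample column was without a sample.

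Raw counts were tested with edgeR 4.0.16 (glmQLFit, robust, and glmQLFTest; R 4.3.3) over the 9697 genes with mean normalized CPM above 10, with spike-in size factors or TMM, and Benjamini-Hochberg adjustment over all of them. INHBA, LTBP1 and other genes under this filter come from a fit over 17530 genes. Standard errors are the fold change over the square root of F. Calls use an adjusted p below 0.05, with a fold threshold of 0.7 (log2) where stated. Ratios add 0.5 to raw counts. Alternatives were median-of-ratios scaling, DESeq2 1.42.0, other filters, a replicate block, each library left out and a pseudocount of 5. The spike-in fit over the 9697 genes was tested on simulated data, and the other fits were not.

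The members, lists and named genes were chosen with earlier results of these data known. Named are the 9 members, DYRK1A, list genes called in 1 direction under both scalings, each list's lowest and highest gene, and 2 nearest patterns per member, of which some genes are not reported here. List genes below the filter, SMAD2, SMAD4, SMURF1, SMURF2, COL4A1, TIMP3, LOXL2, THBS1, JUNB, ID1 and ID3 were named after their values were seen.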

Additional observations from a re-analysis of the deposited data

How the results depend on the processing

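Of 185 alternatives to the fold changes of the 9 genes, 159 kept direction and the side of the threshold. All 48 for the ratios kept direction, with no call possible, and 32 of 44 counts of pathway genes stayed within 1.5 times. TMM and median-of-ratios scaling turned the sign for TGFB1 (0.19 and 0.20), TGFBR2 (0.25 and 0.25) and SMAD3 (0.16 and 0.17), brought SMAD7 past the threshold (0.46 and 0.46) and ended the calls of TGFBI (-0.056 and -0.052) and LTBP1 (-0.19 and -0.18). They changed the pathway genes called from 42 lower and 2 higher to 21 and 20 lower and 29 and 29 higher. With a fold threshold of 0.7 there were 10 lower and 1 higher, and with filterByExpr 4 higher. With TMM and filterByExpr TGFB1 was at 0.16 and not called. Spike-in scaling shifts all genes of a library together, by -0.40 at the median.

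With 1 library left out, spike-in values ran from -0.30 to -0.10 for TGFB1, -0.32 to -0.15 for SMAD3, -0.23 to -0.068 for TGFBR2 (highest without shControl 1A, -0.069, or shDYRK1A 1B, -0.068, and never called), -0.0089 to 0.14 for SMAD7 and -0.67 to -0.46 for LTBP1, and TMM values from 0.13 to 0.26 for TGFB1, -0.27 to -0.16 for TGFBR1 and -0.083 to -0.034 for TGFBI (without shDYRK1A 1B, adjusted p = 0.0513). Pathway genes called per cell were 29 (without shControl 1A) to 56 (without shControl 1C) lower and 1 to 2 higher. The cause of these shifts was not tested.

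Same-letter libraries deviated together with correlations of 0.151 (1A), 0.0728 (1B) and 0.128 (1C), and each library correlated best with its own letter. The labels do not say whether the letters mark pairs, and the main fits did not use them. The replicate block gave 38 pathway genes lower and 2 higher per cell, and 24 lower and 29 higher with TMM, and changed no call of the 9 genes (TGFB2 -0.67, TGFBR1 -0.62, INHBA -1.42). Paired ratios cannot go below p = 0.25 in an exact test. With 59 to 201 raw reads, INHBA, and genes below the filter, carry the widest intervals.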
